A study of Mus musculus with 24 samples.

Results

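Potassium channel genes were followed in RNA sequencing of the mouse dentate gyrus. The set was every gene of the deposited count table whose symbol starts with Kcn, apart from Kcne2, Kcnj8 and Kcnj13, with a summed count of at least 240 over the 24 libraries. Such a symbol was carried by 95 of the 26667 genes, 3 were excepted, 11 were below the limit, and 81 remained. All 81 passed the filter on low counts, which kept 18286 genes. Just inside the limit were Kcnn4 with a summed count of 325 and Kcnk7 with 391, and just outside it was Kcne3 with 231.

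Granule neurons make up most of the dentate gyrus, the entry field of the hippocampus. The 5 groups were APP/PS1 mice given BCI-838 and a running wheel (5 libraries), APP/PS1 mice given BCI-838 (4), APP/PS1 mice given a running wheel (5), APP/PS1 mice with neither (5, called APP/PS1 controls), and wild-type (WT) C57BL6/J mice with neither (5). The drug dose was 5 mg/kg by mouth each day, drug and wheel access lasted 1 month, per the labels, and tissue was taken from 5 mice a group. The design text names vehicle as the alternative to the drug. The labels do not say in so many words that a library is a single mouse, so p-values measure the spread between these samples. APP/PS1 mice carry a mutant amyloid precursor protein gene and a mutant presenilin gene, and every treated group carried both. BCI-838 is a prodrug of an antagonist of group II metabotropic glutamate receptors. The sources used here do not give the promoters of the transgenes or the age and sex of the mice.

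Potassium channels let potassium leave or enter the cell and set the resting potential, the shape of the action potential and the rate of firing. Voltage-gated (Kv) channels, tandem-pore-domain leak channels and inward rectifiers differ in what opens them, while auxiliary subunits change their gating or their transport to the membrane. In granule neurons, potassium conductances are known for keeping the cells hyperpolarised and sparsely active. The 81 genes were sorted by role into 15 pore-forming subunits of the Kv1 to Kv4 families, 9 silent Kv subunits, 5 Kcnq genes, 8 Kcnh genes, 8 channels opened by calcium or sodium, 11 inward rectifiers, 11 tandem-pore-domain channels, 12 auxiliary subunits and 2 others.

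The selectivity filter is the stretch of the pore that admits potassium, and its coding sequence is what the pore-forming genes have in common. The pattern NTNGGNTNNGGN, read in frame on the coding strand of GENCODE M21 transcripts, was present in 65 of the 67 pore-forming genes and in 0 of the 12 auxiliary genes. It was present in 81.25% of the 80 members with a complete coding sequence and in 10.34% of 21816 coding genes. For 6 of the genes on which the levels and changes turn, 45 coding bases around the filter follow (build GRCm38, coding strand), with the match and the codon before it, 15 bases, in capitals. Kcng2 and Kcnn2 are named only.
Kcna1: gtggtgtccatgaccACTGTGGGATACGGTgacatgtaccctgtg
Kcng1: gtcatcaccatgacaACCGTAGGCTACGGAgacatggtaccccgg
Kcnh3: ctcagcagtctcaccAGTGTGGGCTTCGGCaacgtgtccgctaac
Kcnma1: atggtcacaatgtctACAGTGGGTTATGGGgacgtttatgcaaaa
Kcnt1: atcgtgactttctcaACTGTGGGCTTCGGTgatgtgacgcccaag
Kcnk2: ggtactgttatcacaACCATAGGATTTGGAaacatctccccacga
Kcna1 lies at chr6:126642213-126642257 on the minus strand and Kcng1 at chr2:168262626-168262670 on the minus strand, each within 1 coding exon. Kcnh3 lies at chr15:99232914-99232958 and Kcnt1 at chr2:25894352-25894396, both on the plus strand, and Kcnma1 at chr14:23528398-23528442 on the minus strand, again within 1 exon. The stretch of Kcnk2 (chr1:189258876-189295615, minus strand) spans an intron. Of the 15 filter bases, Kcnt1 shared 13 with Kcna1, Kcng1, Kcnh3 and Kcnma1 shared 11, and Kcnk2 shared 9. These counts include the bases that the pattern fixes, which are shared by construction. Printed stretches also had to hold a threonine or serine codon before the match.

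Levels are compared between genes as counts scaled to the library total (CPM) and divided by the exon length of the gene model (CPM per kb), and within a gene as CPM. In WT dentate gyrus the genes ranged from 140.1 ± 30.2 CPM per kb for Kcnab2 down to 0.0322 ± 0.0244 for Kcnn4 (SD, n = 5). There were 28 genes at 10 CPM per kb or more and 15 below 1. Together the 81 genes took 0.503 to 0.624% of the counts of a library. Of the 81 gene models 24 share exonic bases with a gene on the opposite strand, among them Kcna6, Kcnab1, Kcnab3, Kcng2, Kcnh7, Kcnj3, Kcnj6, Kcnk2, Kcnma1, Kcnmb4 and Kcnq5, and 2 with a gene on the same strand (Kcnab2 and Kcnk4). The sources used here do not say whether the counting used strand, and without it reads of a gene and of its antisense partner cannot be told apart.

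**Figure D1:**
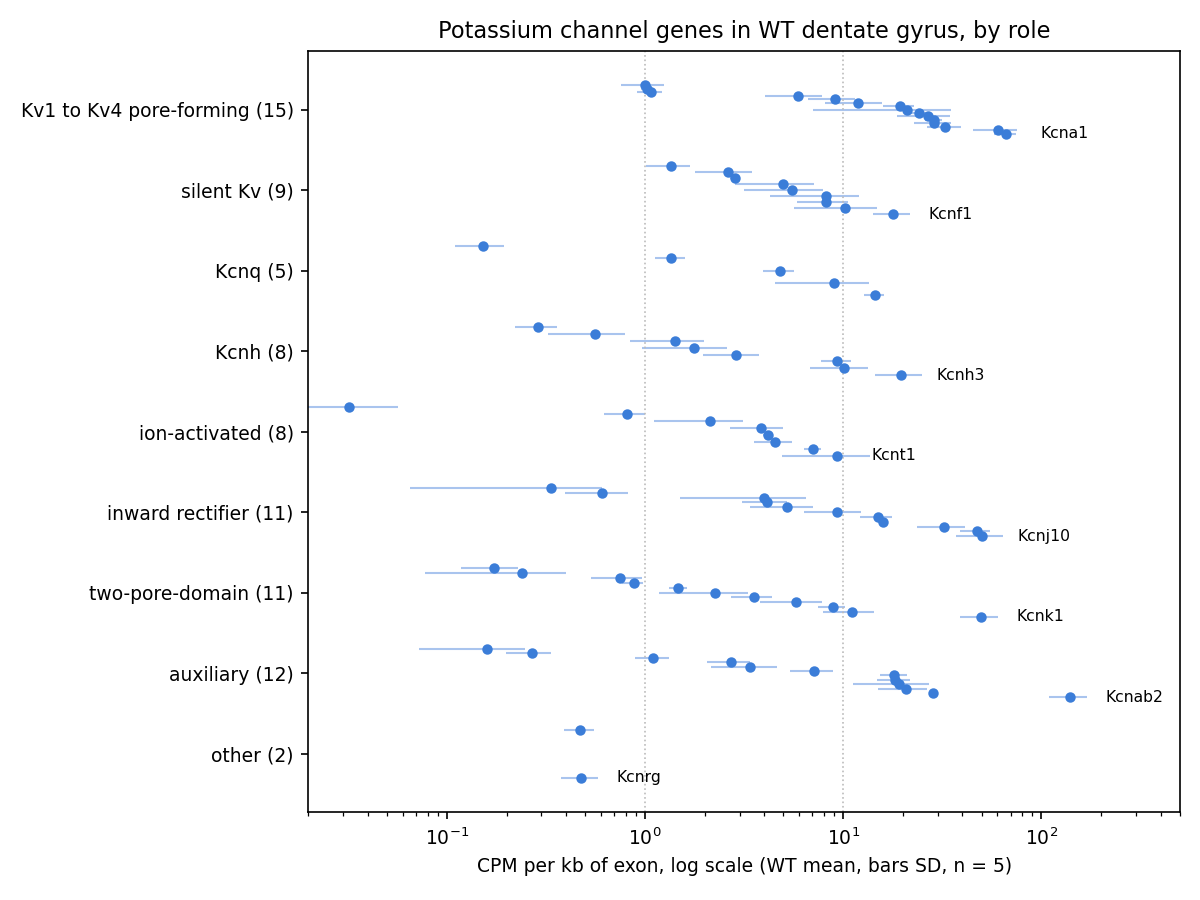
Level of each of the 81 genes in WT dentate gyrus (CPM per kb of exon, log axis), by role; points are means and bars SD over 5 libraries, and for 8 roles the gene with the highest level is named. Kcnab2 is the rightmost point at 140.1 CPM per kb, and each role but the last holds genes on both sides of 5 CPM per kb.

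Among the Kv1 to Kv4 pore-forming genes, Kcna1, a low-threshold axonal channel, had 66.1 ± 8.69 CPM per kb in WT libraries (SD, n = 5). Kcnc1, which supports fast spiking in interneurons, had 32.8 ± 6.42 CPM per kb. Kcna2, which joins Kcna1 in axons, had 28.9 ± 6.01 and Kcnd2, the A-type channel of dendrites, 28.7 ± 2.91 CPM per kb, and these did not differ beyond their spread. Kcnc4 had 26.7 ± 8.08 and Kcnc2 21.0 ± 13.9 CPM per kb, and these were within each other's spread. The lowest of the family were Kcnb2 (1.07 ± 0.151), Kcnd1 (1.03 ± 0.0699) and Kcna5 (1.00 ± 0.250 CPM per kb).

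Silent subunits form no channel alone and modify Kv2 channels. Kcnf1 had the highest level among them, 17.9 ± 3.82 CPM per kb in WT libraries, followed by Kcng2 (10.2 ± 4.55), Kcns2 (8.22 ± 2.39) and Kcnv1 (8.17 ± 3.90), and the last 3 did not differ beyond their spread. Kcng3 was lowest at 1.35 ± 0.334 CPM per kb. Of the M-current subunits, which damp repetitive firing, Kcnq5 had 8.99 ± 4.45 and Kcnq3 4.80 ± 0.863 CPM per kb. The cardiac channel Kcnq1 had 0.152 ± 0.0421 CPM per kb. Kcnq1 shares 121 exonic bases with its antisense RNA Kcnq1ot1, itself in the set at 0.472 ± 0.0809 CPM per kb. Among the ether-a-go-go channels Kcnh3 had 19.7 ± 5.27, Kcnh2 10.05 ± 3.27 and Kcnh1 9.36 ± 1.59 CPM per kb, and Kcnh2 and Kcnh1 were within each other's spread.

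Among channels opened by intracellular ions, the sodium-activated Kcnt1 had 9.29 ± 4.38 CPM per kb, the large-conductance calcium-activated Kcnma1 7.04 ± 0.695 and the small-conductance Kcnn2 4.52 ± 0.990. The inward rectifiers were led by Kcnj10, the potassium-buffering channel of astrocytes, at 50.5 ± 13.6 CPM per kb, and Kcnj4 at 47.2 ± 8.20, which did not differ beyond their spread. The G protein-gated (GIRK) subunits spanned a wide range, with Kcnj9 at 32.4 ± 8.81, Kcnj3 at 14.9 ± 2.77, Kcnj6 at 9.31 ± 3.00 and Kcnj5 at 0.335 ± 0.271 CPM per kb. The pore of ATP-sensitive channels, Kcnj11, had 15.8 ± 0.880 CPM per kb. The tandem-pore-domain leak channels were led by Kcnk1 (49.8 ± 10.9), ahead of the stretch-sensitive Kcnk2 (11.1 ± 3.25) and of Kcnk12 (8.87 ± 1.38 CPM per kb). Among auxiliary subunits, Kcnab2, a cytoplasmic beta subunit of Kv1 channels, was followed by the Kv4 partners Kcnip3 (28.4 ± 1.06) and Kcnip2 (20.7 ± 5.75 CPM per kb).

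The libraries differed in markers of granule neurons and of neighbouring tissue. The highest library was at least 2 times the lowest for 66 genes and at least 5 times for 13, with a median ratio of 2.68 over the genes with a count in every library. Depth was 48656360 to 64632882 counts per library. All 10 granule neuron markers were detected in every library, and their mean log2 CPM (the granule neuron score) ran from 3.93 in WT replicate 3 to 6.86 in APP/PS1 control replicate 2. The score was 5.28 to 5.97 in the 4 BCI-838 libraries and overlapped between all groups. A score over 11 thalamus and dorsal midbrain markers was 3.51 to 4.54 in the BCI-838 libraries and -0.17 to 3.24 in the libraries of BCI-838 plus exercise, with no overlap. Transthyretin (Ttr), a choroid plexus gene, was at 425, 1615 and 1269 CPM in APP/PS1 control replicates 2, 4 and 5 and at 297 CPM in BCI-838 plus exercise replicate 5, against 15.6 CPM or less in the other libraries. Every fit without the 4 libraries high in Ttr therefore draws on replicates 1 and 3 alone for the APP/PS1 control group. In such fits the smaller group and the absence of tissue high in Ttr were not tested apart. In bulk tissue, fewer cells of a type and less RNA per cell cannot be told apart.

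Within groups, 25 of the 81 genes followed the granule neuron score, 14 rising and 11 falling with it. The slope of each gene's log2 level on the score was tested with edgeR's quasi-likelihood test in a model with a mean per group, a test added after the data had been seen. The threshold was an adjusted p (Benjamini-Hochberg) under 0.05, which 18.5% of all 18286 genes passed, 9.05% rising and 9.42% falling. The median slope was -0.02 for the 81 genes and -0.0048 for all genes. No potassium channel gene is among the markers that make up the score.

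The silent subunits Kcng2 and Kcng1 had the steepest rising slopes, 0.70 ± 0.09 and 0.64 ± 0.10 log2 units per unit of score (SE, edgeR adjusted p = 1.99e-05 and 0.000166). Kcng2 was at 25.5, 36.7, 32.9, 11.4 and 23.99 CPM in BCI-838 plus exercise replicates 1 to 5, at 19.6, 19.99, 12.0 and 12.1 in BCI-838, at 47.5, 31.1, 41.9, 20.4 and 44.5 in exercise, at 26.3, 46.0, 12.2, 32.7 and 47.1 in APP/PS1 controls, and at 15.5, 34.2, 16.7, 42.4 and 43.5 CPM in WT. The low libraries of each group were those with its low granule scores, such as BCI-838 plus exercise replicate 4 (score 5.00), APP/PS1 control replicate 3 (4.76) and WT replicates 1 and 3 (5.52 and 3.93), and all groups overlapped. Kcns2, another silent subunit, also rose (0.36 ± 0.07, adjusted p = 0.0013), while Kcns1 (-0.39 ± 0.09, adjusted p = 0.00459) and Kcns3 (-0.29 ± 0.08, adjusted p = 0.0107) fell.

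Kcna4, an A-type channel, rose by 0.34 ± 0.04 log2 units per unit of granule score (edgeR adjusted p = 1.33e-05). Its CPM were 56.4, 43.4, 51.2, 31.7 and 44.8 in BCI-838 plus exercise, 41.3, 42.8, 41.0 and 36.7 in BCI-838, 39.4, 37.9, 47.4, 33.4 and 43.9 in exercise, 37.5, 49.2, 31.7, 37.1 and 52.6 in APP/PS1 controls, and 37.3, 53.2, 26.9, 54.8 and 46.98 in WT. Its lowest values again sat in WT replicate 3, APP/PS1 control replicate 3 and BCI-838 plus exercise replicate 4, and all groups overlapped. The A-type channel Kcnd3 (0.29 ± 0.07, adjusted p = 0.00811) and the axonal Kcna1 (0.14 ± 0.03, adjusted p = 0.00501) also rose, and Kcna6 fell (-0.23 ± 0.07, adjusted p = 0.0221).

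Of the inward rectifiers, 3 of 11 rose with the granule score and 0 fell. Kcnj2, a strong rectifier that holds the resting potential, had a slope of 0.52 ± 0.10 (edgeR adjusted p = 0.00128). The GIRK subunits Kcnj6 and Kcnj3 had slopes of 0.39 ± 0.09 and 0.19 ± 0.06 (adjusted p = 0.00268 and 0.0409). Of the tandem-pore-domain channels, Kcnk1 (0.31 ± 0.05, adjusted p = 0.000224) and Kcnk10 (0.32 ± 0.07, adjusted p = 0.0038) rose, whereas the acid-sensitive Kcnk3 (-0.40 ± 0.10, adjusted p = 0.00998) and Kcnk13, a channel of microglia (-0.41 ± 0.11, adjusted p = 0.0104), fell. Among ion-activated channels Kcnt2 rose (0.33 ± 0.08, adjusted p = 0.0077), and its relative Kcnt1 (-0.51 ± 0.14, adjusted p = 0.0126) and Kcnn2 (-0.26 ± 0.06, adjusted p = 0.00686) fell. The Kv4 partner Kcnip2 rose (0.29 ± 0.09, adjusted p = 0.0384), and the Kv1 beta subunit Kcnab3 fell (-0.42 ± 0.12, adjusted p = 0.0159).

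Kcnq5 and Kcnh7 fell with the granule score, with slopes of -0.48 ± 0.08 and -0.58 ± 0.18 log2 units per unit (edgeR adjusted p = 0.000322 and 0.026). Kcnq5 was at 89.3, 53.9, 68.6, 79.8 and 97.5 CPM in BCI-838 plus exercise, 52.9, 52.1, 53.4 and 53.9 in BCI-838, 35.9, 31.4, 51.8, 63.8 and 54.1 in exercise, 45.6, 29.3, 86.5, 32.1 and 59.4 in APP/PS1 controls, and 75.5, 50.8, 126, 54.7 and 39.2 CPM in WT. Its highest value stood in WT replicate 3 and the highest APP/PS1 control value in replicate 3, the libraries with the lowest granule scores of their groups. Kcnq3, with which Kcnq5 can share a channel, was not called. Leaving out APP/PS1 control replicate 3 ended the calls of Kcnh7, Kcna6, Kcnk3, Kcnk13 and Kcnt1 (adjusted p = 0.167, 0.154, 0.0777, 0.0553 and 0.0544) and brought the falling genes to 5, against 5.24% of all genes. Leaving out WT replicate 3 ended those of Kcnd3 and Kcnk10 (0.142 and 0.0721) and moved the slope to 0.58 for Kcnip2, -0.39 for Kcna6, -0.64 for Kcnk13 and 0.20 for Kcnd3. Leaving out exercise replicate 4 ended the calls of Kcnh7 and Kcna6 (0.0547 and 0.0508), and BCI-838 plus exercise replicate 4 that of Kcna6 (0.0573). Kcnip2 and Kcnj3 lost their calls in 8 and 10 of the 24 fits without 1 library, with adjusted p of at most 0.141 and 0.171. Without the 4 libraries high in Ttr, 15 genes were called, 11 rising and 4 falling, against 5.25% and 4.66% of all genes.

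**Figure D2:**
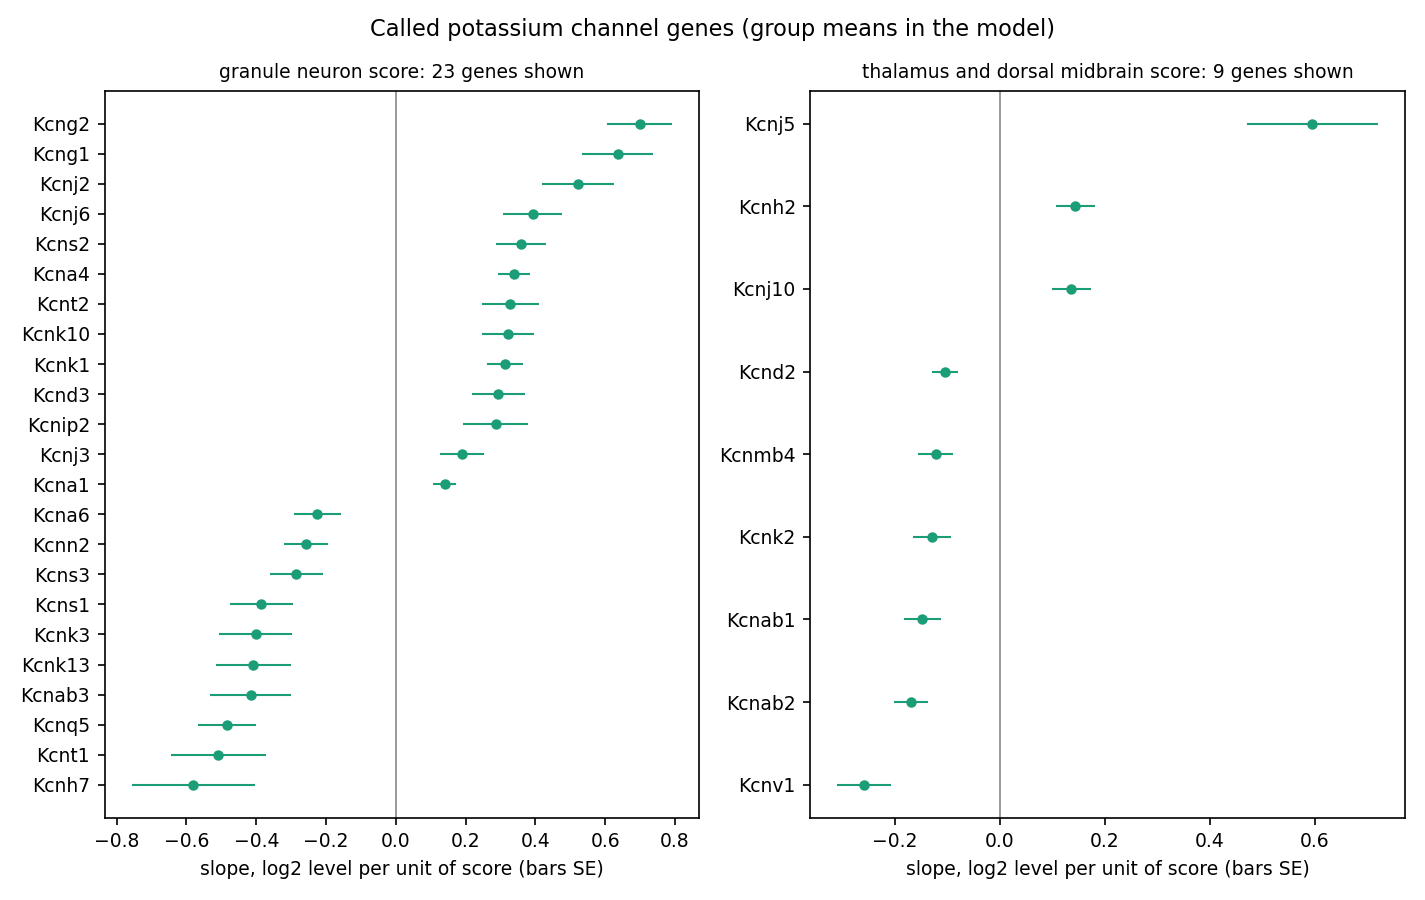
Slope of the log2 level on the granule neuron score (left) and on the thalamus and dorsal midbrain score (right) for called genes reported by name; points are slopes and bars SE. On the left 13 genes lie right of 0 and 10 left of it, from Kcng2 at 0.70 to Kcnh7 at -0.58, and on the right 3 and 6, from Kcnj5 at 0.60 to Kcnv1 at -0.26.

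The thalamus and dorsal midbrain score was followed by 9 of the 81 genes, 3 rising and 6 falling, where 8.84% of all genes were called (4.55% rising, 4.29% falling). Kcnj5, a GIRK subunit best known from the heart, rose by 0.60 ± 0.12 log2 units per unit of this score (SE, edgeR adjusted p = 0.00378). It was at 0.444, 0.835, 1.09, 0.196 and 0.416 CPM in BCI-838 plus exercise, 1.52, 0.875, 2.42 and 1.72 in BCI-838, 1.08, 1.66, 0.752, 1.52 and 0.287 in exercise, 1.32, 2.85, 1.10, 3.23 and 0.492 in APP/PS1 controls, and 1.86, 3.55, 0.476, 0.464 and 1.51 CPM in WT. Its lowest value, in BCI-838 plus exercise replicate 4, came with a midbrain score of 0.18, and the low value of exercise replicate 5 with 0.29. The ether-a-go-go related Kcnh2 (0.14 ± 0.04, adjusted p = 0.018) and the astrocyte channel Kcnj10 (0.14 ± 0.04, adjusted p = 0.0236) also rose. The falling genes were Kcnv1 (-0.26 ± 0.05, adjusted p = 0.00301), the beta subunits Kcnab2 (-0.17 ± 0.03, adjusted p = 0.00181) and Kcnab1 (-0.15 ± 0.04, adjusted p = 0.00959), Kcnk2 (-0.13 ± 0.04, adjusted p = 0.026), Kcnmb4 (-0.12 ± 0.03, adjusted p = 0.0253) and Kcnd2 (-0.10 ± 0.02, adjusted p = 0.0099). No gene was called on both scores. Without the 4 libraries high in Ttr, 4 genes were called, 1 rising and 3 falling, against 2.6% and 1.15% of all genes. Leaving out 1 library ended the call of Kcnj10 (WT replicate 1, APP/PS1 control replicate 5 or exercise replicate 4, adjusted p = 0.0874, 0.0776 and 0.0836), Kcnk2 (APP/PS1 control replicate 5 or exercise replicate 5, 0.105 and 0.0772), Kcnmb4 (WT replicate 1, exercise replicate 4 or exercise replicate 5, 0.0878, 0.0605 and 0.101) or Kcnd2 (APP/PS1 control replicate 5, 0.0626). Without WT replicate 2, and without APP/PS1 control replicate 3, 5 genes rose, beside 896 of 18275 and 1004 of 18252 genes.

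**Figure D3:**
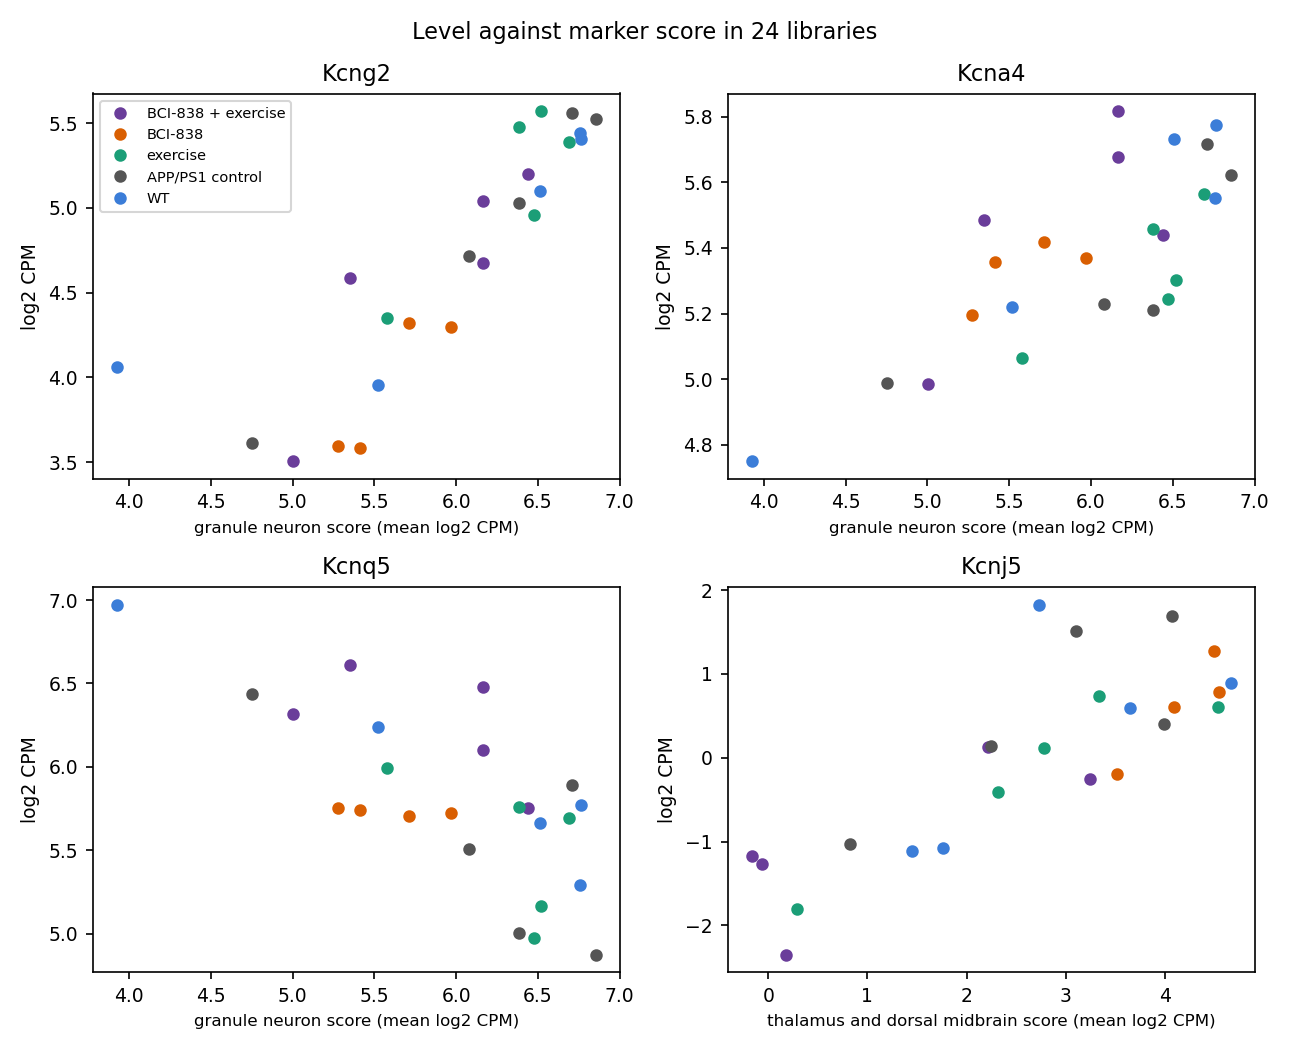
log2 CPM of Kcng2, Kcna4 and Kcnq5 against the granule neuron score and of Kcnj5 against the thalamus and dorsal midbrain score (both mean log2 CPM of their markers), 1 point per library, coloured by group. Across the libraries Kcng2 and Kcna4 are higher and Kcnq5 is lower at high granule scores, and Kcnj5 is lowest in libraries with midbrain scores near 0.

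Between APP/PS1 controls and WT mice no potassium channel gene was called, and most estimates were slightly lower in APP/PS1 controls. edgeR's quasi-likelihood test called 0 of 81 at an adjusted p under 0.05 (2 of all 18286 genes, 0.0109%). DESeq2 and limma voom also called 0 of 81, with 12 and 2 called over all genes. At an unadjusted p under 0.05 there were 2 higher and 4 lower genes, or 7.41% against 2.76% of all genes (2.0% higher, 0.755% lower). The log2 fold change was below 0 for 59 of the 81 genes and for 9616 of all 18286 genes. Its median was -0.08 over the 81 genes and -0.01 over all genes.

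The delayed rectifier Kcnb2 was at 9.60, 11.2, 12.4, 9.70 and 15.7 CPM in APP/PS1 controls, against 13.9, 17.6, 13.5, 18.7 and 17.1 CPM in WT. Of the 5 control libraries 4 were below every WT library and the groups overlapped through replicate 5, with a log2 fold change of -0.47 ± 0.18 (SE, edgeR adjusted p = 1.00). Kcna2 was at 281, 246, 352, 222 and 218 CPM in APP/PS1 controls and at 428, 414, 291, 276 and 311 CPM in WT, overlapping (log2 fold change -0.38 ± 0.18, adjusted p = 1.00), and the estimate was -0.12 without the libraries high in Ttr. Kcng4, a silent subunit, was at 9.59, 29.2, 5.22, 52.7 and 10.6 CPM in APP/PS1 controls, against 11.1, 11.2, 9.99, 10.4 and 11.7 CPM in WT. Its high values stood in replicates 2 and 4, which had 425 and 1615 CPM of Ttr, while replicate 5, with 1269 CPM of Ttr, was at 10.6 CPM. The log2 fold change was 0.98 ± 0.41 with all libraries and -0.55 ± 0.29 without those high in Ttr (adjusted p = 1.00 and 0.981). Without replicate 4 of the controls it was 0.33. Kcnmb1, the beta subunit of BK channels in smooth muscle, was at 0.670, 2.15, 0.584, 2.45 and 1.41 CPM in APP/PS1 controls, against 1.25, 0.424, 0.317, 0.780 and 0.584 CPM in WT. Its 3 highest values stood in the control libraries high in Ttr, and the log2 fold change was 1.11 ± 0.48 with them and -0.10 ± 0.46 without (adjusted p = 1.00 and 0.991).

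**Figure D4:**
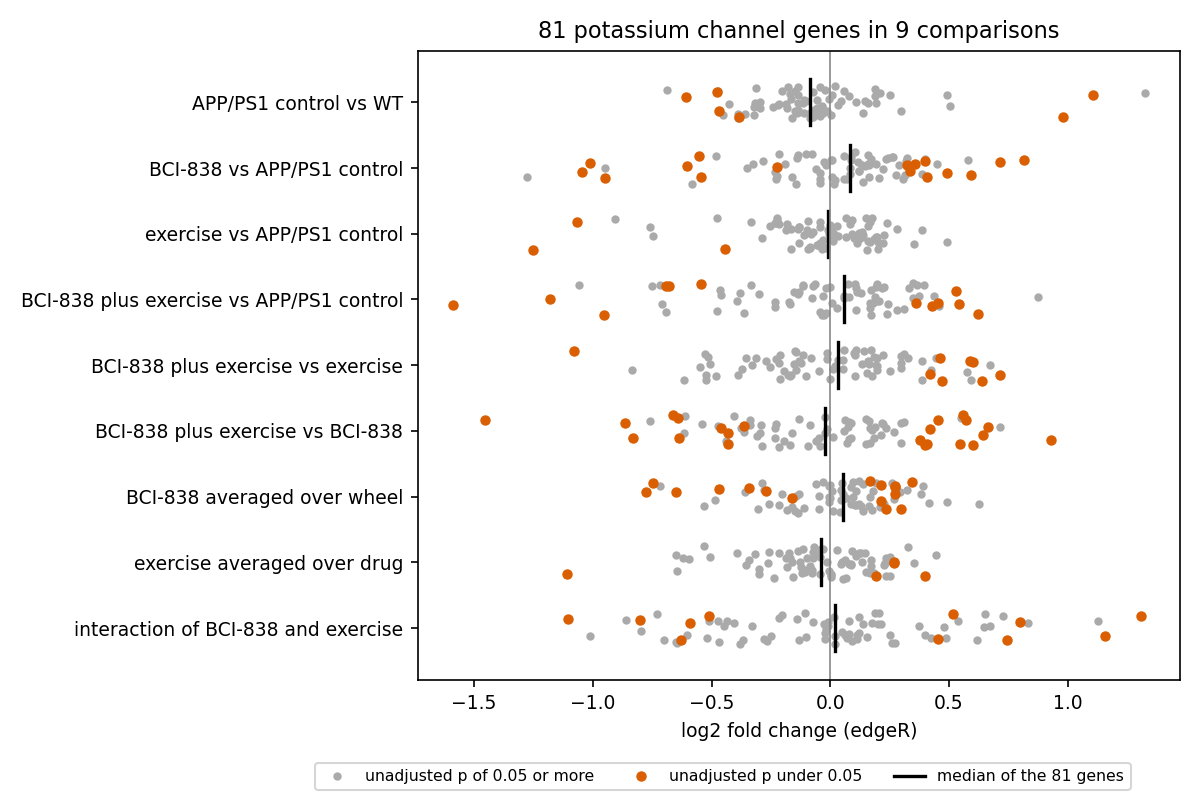
log2 fold change (edgeR) of each of the 81 genes in 9 comparisons; orange marks an unadjusted p under 0.05 and the black tick the median. No gene passed an adjusted p of 0.05 in any row, medians lie between -0.08 and 0.09, and the orange points number from 3 in exercise against APP/PS1 controls to 22 in BCI-838 plus exercise against BCI-838.

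BCI-838 against APP/PS1 controls gave no called gene with edgeR (0 of 81, 0.0% of all genes) or DESeq2 (0, 0.879% of the genes with an adjusted p), and limma voom called 5, with 2.64% of all genes. At an unadjusted p under 0.05, 9 genes were higher and 7 lower, 19.8% against 10.2% of all genes (4.23% higher, 5.96% lower). Of the 81 genes 50 had a log2 fold change above 0, beside 9158 of all 18286 genes. The median was 0.09 over the 81 genes and 0.00 over all genes. Of the 9 silent subunits 6 were below 0, with a median of -0.58, where 9128 of all 18286 genes were below 0. The other roles had medians from -0.01 to 0.16. The granule score of the BCI-838 libraries was 5.28 to 5.97, against 4.76 to 6.86 in APP/PS1 controls, and its part alone was not tested. A tissue covariate was the mean log2 CPM of 13 CA field neuron markers minus the granule score. With it edgeR called 0 of the 81 genes and 0 of all genes in this comparison.

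Kcnmb4, the neuronal beta subunit of BK channels, was at 15.9, 18.2, 15.7 and 13.3 CPM in BCI-838 libraries, against 18.3, 24.1, 26.5, 22.7 and 24.2 CPM in APP/PS1 controls. The groups did not overlap, as for 3 of the 81 genes (Kcnmb4, Kcnc4 and Kcnk4) and 4.71% of all genes, the highest BCI-838 library lying just under the lowest control, and the log2 fold change was -0.55 ± 0.16 (SE, edgeR adjusted p = 0.239, limma voom adjusted p = 0.0343). Kcnmb4 shares 1048 exonic bases with antisense genes, and it was 1 of the genes that fell with the midbrain score. The part of that score in this difference was not tested. Kcng3 was at 2.82, 1.99, 1.97 and 2.08 CPM in BCI-838 libraries, against 3.01, 5.42, 4.77, 2.48 and 5.71 CPM in APP/PS1 controls. BCI-838 replicate 1 alone overlapped the controls, and the log2 fold change was -0.95 ± 0.31 (edgeR adjusted p = 0.29, limma voom adjusted p = 0.0417). Kcnj11 was at 55.1, 51.2, 51.0 and 48.5 CPM in BCI-838 libraries and 63.1, 61.9, 52.5, 51.8 and 71.0 CPM in APP/PS1 controls, overlapping (log2 fold change -0.22 ± 0.08, edgeR adjusted p = 0.334). Kcnip3 was at 104, 141, 121 and 134 CPM in BCI-838 libraries and 104, 92.6, 123, 80.7 and 88.3 CPM in APP/PS1 controls, overlapping (log2 fold change 0.36 ± 0.13, edgeR adjusted p = 0.34). Without the 4 libraries high in Ttr its log2 fold change was 0.14.

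Group II metabotropic receptors signal through Gi/o proteins, whose beta-gamma subunits open GIRK channels. The GIRK subunits Kcnj3, Kcnj6, Kcnj9 and Kcnj5 had log2 fold changes of 0.14 ± 0.17, -0.14 ± 0.26, 0.32 ± 0.17 and -0.13 ± 0.60 in BCI-838 against APP/PS1 controls (SE, edgeR adjusted p = 0.803, 0.901, 0.55 and 0.963). Kcnj3, the subunit most GIRK channels of the hippocampus contain, was at 72.6, 87.2, 80.7 and 65.3 CPM in BCI-838 libraries, against 51.8, 78.4, 67.6, 59.6 and 88.2 CPM in APP/PS1 controls. Kcnj6 was at 60.6, 66.2, 61.3 and 50.03 CPM in BCI-838 libraries, against 43.1, 83.6, 36.4, 67.8 and 97.2 CPM in APP/PS1 controls. Kcnj9 was at 137, 177, 157 and 155 CPM in BCI-838 libraries, against 132, 124, 174, 94.7 and 103 CPM in APP/PS1 controls. For each of the 4 subunits the groups overlapped.

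Exercise against APP/PS1 controls gave no called potassium channel gene with edgeR (0 of 81, 0.00547% of all genes), DESeq2 or limma voom. Over all genes DESeq2 called 60 and limma voom 0. There were 0 higher and 3 lower genes at an unadjusted p under 0.05, 3.7% against 5.44% of all genes (2.37% higher, 3.07% lower), and the median log2 fold change was -0.01 over the 81 genes and 0.01 over all genes. Kcnma1, the pore of BK channels, was at 51.7, 57.1, 118, 112 and 69.3 CPM in exercise libraries, against 68.6, 135, 128, 125 and 99.5 CPM in APP/PS1 controls. Replicates 3 and 4 of the exercise group lay among the controls, replicates 1 and 2 below them all (log2 fold change -0.44 ± 0.20, edgeR adjusted p = 0.882). Its estimate was -0.27 without the libraries high in Ttr and -0.72 with limma voom. Kcng4 was high in control replicates 2 and 4 and Kcnmb1 in control replicates 2, 4 and 5, all rich in Ttr. Their log2 fold changes were -1.25 ± 0.41 and -1.07 ± 0.48 (adjusted p = 0.507 and 0.867) with all libraries and 0.28 and 0.14 without the libraries high in Ttr. Without replicate 4 of the controls that of Kcng4 was -0.61. Kcnk12, a tandem-pore-domain subunit, was at 19.7, 14.1, 17.9, 19.9 and 18.7 CPM in exercise libraries and 17.7, 15.3, 19.0, 11.4 and 13.6 CPM in APP/PS1 controls, overlapping, with a log2 fold change of 0.23 ± 0.13 (adjusted p = 0.988) that was -0.03 without the libraries high in Ttr and 0.13 without replicate 4 of the controls.

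BCI-838 plus exercise against APP/PS1 controls gave no called potassium channel gene with edgeR (0 of 81, 0.0% of all genes), DESeq2 or limma voom. Over all genes DESeq2 called 79 and limma voom 0. An unadjusted p under 0.05 was reached by 6 genes higher and 6 lower, 14.8% against 10.6% of all genes (4.87% higher, 5.73% lower), with a median log2 fold change of 0.06 over the 81 genes and -0.01 over all genes. Kcnab1, a beta subunit that inactivates Kv1 channels, was at 219, 149.9, 197, 243 and 244 CPM in BCI-838 plus exercise, against 147, 133, 161, 91.8 and 191 CPM in APP/PS1 controls. All but replicate 2 of the treated group were above every control, and the log2 fold change was 0.54 ± 0.18 (edgeR adjusted p = 0.319). Kcnab2 was at 1065, 806, 714, 909 and 1278 CPM in BCI-838 plus exercise, against 761, 676, 631, 482 and 937 CPM in APP/PS1 controls, overlapping (log2 fold change 0.45 ± 0.18, adjusted p = 0.388). Kcnj5 was lower in BCI-838 plus exercise by its estimate, -1.59 ± 0.59, at the CPM given above, and the groups overlapped (adjusted p = 0.365). Without the libraries high in Ttr the estimate was -0.92. Kcnab1, Kcnab2 and Kcnj5 are among the genes that followed the midbrain score, which was -0.17 to 3.24 in BCI-838 plus exercise and 0.83 to 4.07 in APP/PS1 controls, and its part in these values was not tested.

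BCI-838 plus exercise against exercise gave no called gene with edgeR (0 of 81, 0.0% of all genes), 2 with DESeq2 (2.55% of the genes with an adjusted p) and 4 with limma voom (5.53% of all genes). Unadjusted p-values were under 0.05 for 7 higher and 1 lower gene, 9.88% against 17.6% of all genes (8.73% higher, 8.83% lower), and the median log2 fold change was 0.03 over the 81 genes and -0.02 over all genes. Kcnq3 was at 86.2, 59.8, 57.6, 59.5 and 104 CPM in BCI-838 plus exercise, against 28.9, 33.1, 72.9, 66.2 and 40.8 CPM in exercise, overlapping (log2 fold change 0.60 ± 0.24, edgeR adjusted p = 0.203, limma voom 0.0333). Kcnq5, at the CPM given above, had a log2 fold change of 0.72 ± 0.30 (edgeR adjusted p = 0.221).

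In the same comparison Kcna5, a delayed rectifier best known from heart and vessels, was at 1.67, 2.89, 0.847, 2.71 and 1.23 CPM in BCI-838 plus exercise, against 5.05, 3.13, 3.70, 3.73 and 4.20 CPM in exercise. Kcna5 was the 1 gene of 81 whose groups did not overlap, against 1.4% of all genes, and the log2 fold change was -1.08 ± 0.30 (edgeR adjusted p = 0.131, DESeq2 0.0295, limma voom 0.0261). A score (mean log2 CPM) over 8 endothelium markers was 4.30 to 4.65 in BCI-838 plus exercise and 4.71 to 5.08 in exercise. These scores did not overlap either, and their part in the difference of Kcna5 was not tested. Kcnma1 was at 153, 101, 136, 107 and 139.5 CPM in BCI-838 plus exercise, against 51.7, 57.1, 118, 112 and 69.3 CPM in exercise. Exercise replicates 3 and 4 lay inside the range of BCI-838 plus exercise and the other 3 below it, with a log2 fold change of 0.64 ± 0.20 (edgeR adjusted p = 0.148, limma voom 0.0228). Without exercise replicate 3 edgeR called 2 of the 81 genes, among them Kcnma1 at an adjusted p of 0.0444, and 2.19% of all genes. Without exercise replicate 1 the adjusted p of Kcnma1 was 0.391. Kcnab1 was at 219, 149.9, 197, 243 and 244 CPM in BCI-838 plus exercise and 122, 118, 169, 164 and 191 CPM in exercise, overlapping (log2 fold change 0.46 ± 0.18, edgeR adjusted p = 0.192), and the estimate was 0.26 with a tissue covariate. Of the GIRK subunits, Kcnj6 was at 110.4, 72.4, 104, 62.1 and 102 CPM in BCI-838 plus exercise and 52.5, 53.5, 83.5, 52.3 and 57.9 CPM in exercise, overlapping (log2 fold change 0.59 ± 0.25, edgeR adjusted p = 0.232). Kcnj3, Kcnj9 and Kcnj5 had log2 fold changes of 0.30 ± 0.16, -0.05 ± 0.16 and -0.83 ± 0.59 (edgeR adjusted p = 0.326, 0.904 and 0.466).

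**Figure D5:**
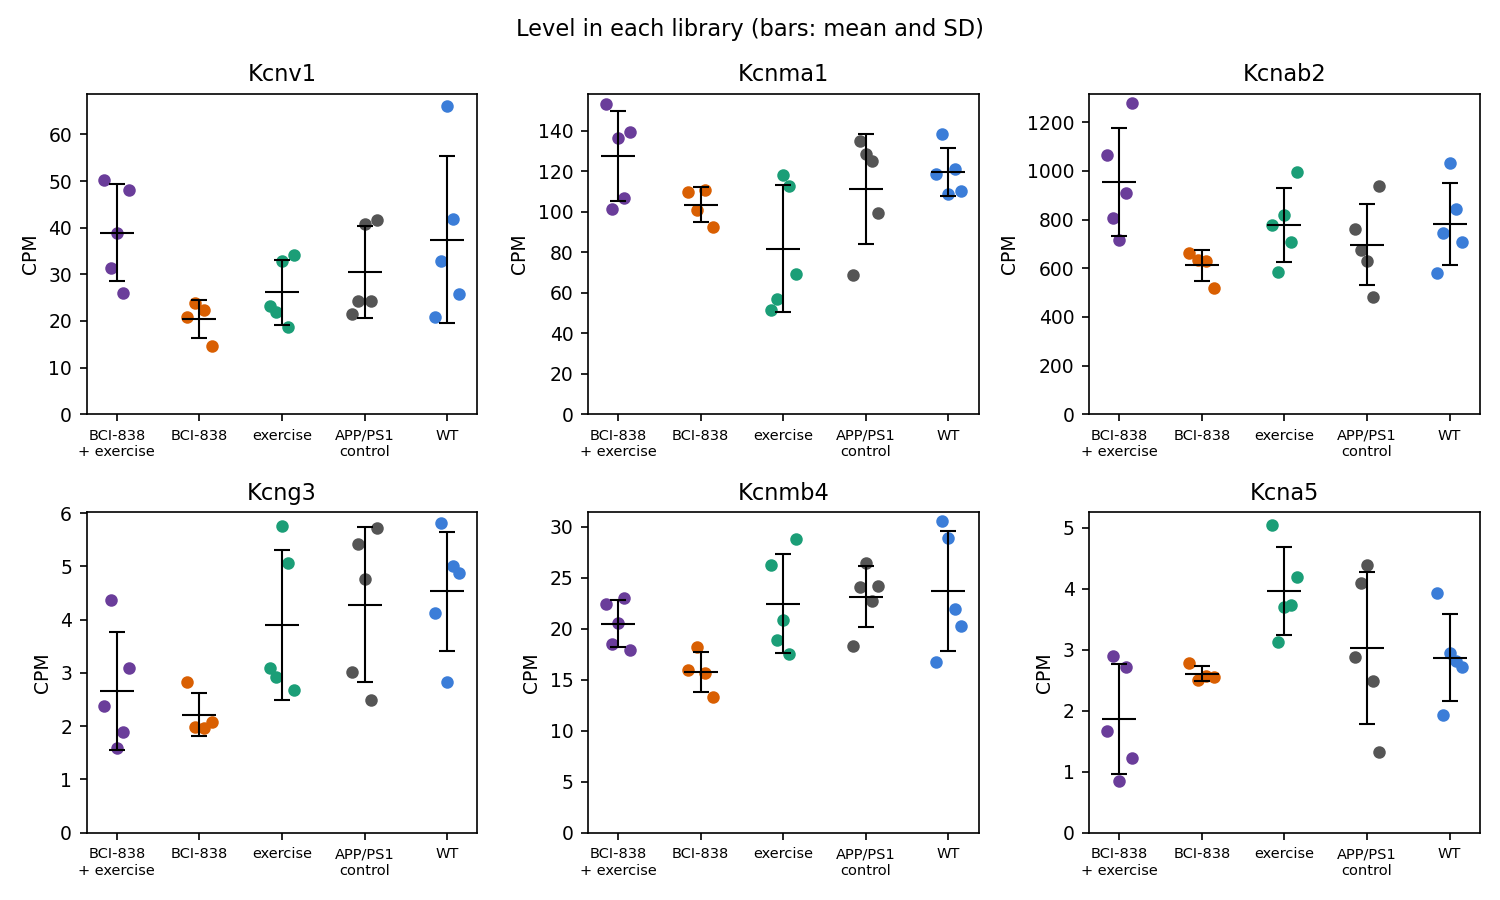
CPM of Kcnv1, Kcnma1, Kcnab2, Kcng3, Kcnmb4 and Kcna5 in each library of the 5 groups; horizontal ticks are means and bars SD (n = 5, 4 in BCI-838). Kcnv1 and Kcnab2 are above all BCI-838 libraries in BCI-838 plus exercise, Kcna5 is below all exercise libraries there, and Kcnmb4 in BCI-838 is below all APP/PS1 controls.

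BCI-838 plus exercise against BCI-838 gave no called gene with edgeR (0 of 81, 0.0% of all genes), 1 with DESeq2 (1.52% of the genes with an adjusted p) and 7 with limma voom (5.12% of all genes). The unadjusted p was under 0.05 for 12 higher and 10 lower genes, 27.2% against 14.3% of all genes (7.48% higher, 6.84% lower), and the median log2 fold change was -0.02 over the 81 genes and -0.01 over all genes. For 12 of the 81 genes the libraries of the groups did not overlap, against 8.24% of all genes. In this comparison the midbrain scores did not overlap either, and 5 of the 12 genes (Kcnab2, Kcnv1, Kcnk2, Kcnh2 and Kcnj10) were among those that followed that score. Nor did the scores (mean log2 CPM) over 13 CA field neuron markers, 5.11 to 5.51 in BCI-838 and 5.70 to 6.72 in BCI-838 plus exercise. Those over 9 mural cell and fibroblast markers were 3.79 to 4.52 and 3.02 to 3.70, again without overlap. Slopes on these scores were not fitted, and the part of each score alone in these differences was not tested.

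Kcnab2 was at 1065, 806, 714, 909 and 1278 CPM in BCI-838 plus exercise, against 663, 635, 628 and 520.3 CPM in BCI-838. The groups did not overlap, and the log2 fold change was 0.64 ± 0.19 (SE, edgeR adjusted p = 0.191, DESeq2 0.0482, limma voom 0.0336). Kcnv1, a silent subunit, was at 50.3, 31.4, 38.8, 26.0 and 48.0 CPM in BCI-838 plus exercise, against 20.8, 23.9, 22.3 and 14.6 CPM in BCI-838. Again the groups did not overlap (log2 fold change 0.93 ± 0.30, edgeR adjusted p = 0.202, limma voom 0.031). Kcnd2 was at 173, 151, 135, 176 and 194 CPM in BCI-838 plus exercise and 141, 124, 123 and 108 CPM in BCI-838, overlapping in replicate 3 (log2 fold change 0.42 ± 0.13, edgeR adjusted p = 0.193, limma voom 0.0446). Kcnj10 was lower in BCI-838 plus exercise by its estimate, at 206, 225, 239.7, 243 and 229 CPM in BCI-838 plus exercise, against 280.2, 271, 324 and 358 CPM in BCI-838 (log2 fold change -0.43 ± 0.18, edgeR adjusted p = 0.283), without overlap. APP/PS1 controls were at 293, 204, 221, 223 and 155 CPM, a range that held every BCI-838 plus exercise library. In BCI-838 against APP/PS1 controls limma voom called Kcnj10 higher (log2 fold change 0.55, adjusted p = 0.0448), and edgeR did not. The score of 11 astrocyte markers was 7.89 to 8.08 in BCI-838 and 7.61 to 7.85 in APP/PS1 controls, and its part was not tested. The GIRK subunits Kcnj6, Kcnj3, Kcnj9 and Kcnj5 had log2 fold changes of 0.60 ± 0.27, 0.17 ± 0.17, -0.34 ± 0.17 and -1.46 ± 0.62 (edgeR adjusted p = 0.309, 0.708, 0.382 and 0.282).

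Averaged over wheel access, BCI-838 gave no called potassium channel gene with edgeR, while 55 of all 18286 genes were called (0.301%), and 0 to 883 with 1 library left out. DESeq2 called 1 potassium channel gene, with 3.78% of the genes given an adjusted p, and limma voom 12, with 12.0% of all genes. There were 9 higher and 7 lower genes at an unadjusted p under 0.05, 19.8% against 18% of all genes (8.54% higher, 9.42% lower), and the median log2 fold change was 0.05 over the 81 genes and -0.01 over all genes. Kcng3 was at 2.39, 4.36, 1.59, 1.90 and 3.08 CPM in BCI-838 plus exercise and 2.82, 1.99, 1.97 and 2.08 in BCI-838, against 3.08, 2.92, 5.76, 5.07 and 2.67 in exercise and 3.01, 5.42, 4.77, 2.48 and 5.71 CPM in APP/PS1 controls. Of the 9 libraries with the drug 6 were below every library without it and 8 below their median, with a log2 fold change of -0.75 ± 0.21 (edgeR adjusted p = 0.0921, DESeq2 0.0233, limma voom 0.0269). Without BCI-838 plus exercise replicate 2, its high library, edgeR called Kcng3 at an adjusted p of 0.0333, with 1.57% of all genes. With other single libraries left out its adjusted p reached 0.198, and it was 0.243 without those high in Ttr. Kcnmb4 had a log2 fold change of -0.34 ± 0.11 (edgeR adjusted p = 0.13), with 9 of 9 drug libraries below the median of the others, and was called without exercise replicate 4 (adjusted p = 0.0482, 4.85% of all genes called). Its adjusted p reached 0.248 with another library left out and was 0.359 without those high in Ttr. Kcna5 had -0.65 ± 0.22 and Kcnj11 -0.16 ± 0.06 (edgeR adjusted p = 0.135 and 0.138), with 9 and 8 of the 9 drug libraries below that median. Kcnj3, Kcnj6, Kcnj9 and Kcnj5 had 0.22 ± 0.11, 0.23 ± 0.18, 0.14 ± 0.12 and -0.48 ± 0.42 (edgeR adjusted p = 0.313, 0.541, 0.582 and 0.579).

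Averaged over the drug, exercise gave no called potassium channel gene with edgeR (0 of 81, 0.0% of all genes), DESeq2 or limma voom. Over all genes DESeq2 called 6 and limma voom 1. Unadjusted p-values were under 0.05 for 4 higher and 1 lower gene, 6.17% against 9.99% of all genes (5.44% higher, 4.55% lower), and the median log2 fold change was -0.04 over the 81 genes and 0.00 over all genes. Kcnab2 had a log2 fold change of 0.40 ± 0.13, with 9 of 10 wheel libraries above the median of the libraries without a wheel, and Kcnj5 -1.11 ± 0.42, with 8 of 10 below it (edgeR adjusted p = 0.443 and 0.445). Kcnk2 and Kcnd2 had 0.27 ± 0.12 and 0.19 ± 0.09 (adjusted p = 0.486 and 0.489). All 4 were among the genes that followed the midbrain score. That score was 0.29 to 4.54 in exercise and -0.17 to 3.24 in BCI-838 plus exercise, against 0.83 to 4.07 in APP/PS1 controls and 3.51 to 4.54 in BCI-838. Its part in these values was not tested.

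The interaction asks whether the difference made by exercise differs with the drug. No potassium channel gene was called with edgeR (0 of 81, 0.0% of all genes), DESeq2 or limma voom. Over all genes DESeq2 called 75 and limma voom 0. At an unadjusted p under 0.05 there were 6 genes with a positive and 5 with a negative term, 13.6% against 9.6% of all genes (5.37% positive, 4.23% negative). The median was 0.02 over the 81 genes and -0.01 over all genes. Among the smallest p-values were those of Kcnk12 (-0.59 ± 0.19, edgeR adjusted p = 0.379) and Kcnv1 (1.16 ± 0.41, adjusted p = 0.41). Without the libraries high in Ttr the term of Kcnk12 was -0.29. Kcnj3, Kcnj6, Kcnj9 and Kcnj5 had terms of 0.15 ± 0.23, 0.73 ± 0.36, -0.37 ± 0.24 and -0.70 ± 0.84 (adjusted p = 0.873, 0.531, 0.644 and 0.832).

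Genes that anchor, traffic or complement potassium channels were taken as a list of 30, of which 29 were tested. In BCI-838 averaged over wheel access 2 of 29 were called higher and 0 lower by edgeR, against 0.148% and 0.153% of all genes, and in the other 8 comparisons 0 were called. Ank3, the ankyrin that tethers M-current channels at the axon initial segment, was at 429, 387, 449, 384 and 418 CPM in BCI-838 plus exercise and 392, 392, 424 and 406 in BCI-838, against 287, 313, 355, 376 and 304 in exercise and 315, 363, 384, 334 and 359.8 CPM in APP/PS1 controls. Of the drug libraries only BCI-838 plus exercise replicate 4 overlapped the others, and Ank3 rose by 0.27 ± 0.06 on the log2 scale (SE, edgeR adjusted p = 0.0427). Adam22, part of the LGI1 receptor complex found with Kv1 channels, was at 296, 263, 313, 300.0 and 282 CPM in BCI-838 plus exercise and 295, 317, 309.8 and 295 in BCI-838, against 219, 259, 275, 273 and 225 in exercise and 217, 252, 285, 221 and 235 CPM in APP/PS1 controls. It rose by 0.27 ± 0.06 (edgeR adjusted p = 0.0408), with overlap between the groups. Leaving out 1 library left 0 of the 29 called in 14 of 19 fits and at most 5 in the rest, and without the 4 libraries high in Ttr 0 were called. In the other comparisons the partner genes with the smallest p-values had edgeR adjusted p of 0.115 or more, among them Ank3 in BCI-838 plus exercise against exercise (log2 fold change 0.34 ± 0.08, adjusted p = 0.115) and Adam22 in BCI-838 against APP/PS1 controls (0.33 ± 0.08, adjusted p = 0.17). The scaffold Dlg4 had 0.42 ± 0.15 in BCI-838 plus exercise against BCI-838 (adjusted p = 0.215), and the sulfonylurea receptor Abcc8, which pairs with Kcnj11, had -0.66 ± 0.19 in BCI-838 against APP/PS1 controls (adjusted p = 0.239).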

How the data were processed

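Bulk RNA sequencing of the dentate gyrus gave 24 libraries in 5 groups. The deposited table holds raw read counts per gene, made by the authors with STAR, HTSeq and DESeq on mm10, per the submitters' processing notes; versions and use of strand: not given in the sources used here. The edgeR 4.0.16 model covered all libraries; it had group means and TMM scaling (R 4.3.3, quasi-likelihood F test) and was fitted to genes kept by filterByExpr (count minimum 10, total minimum 15), and p-values were Benjamini-Hochberg adjusted over 18286 genes. DESeq2 1.42.0 and limma 3.58.1 voom with quality weights were alternatives, as were other scaling, no filter, the compared libraries alone, a tissue covariate, a replicate block, each library left out, and the libraries over 100.0 CPM of Ttr left out. CPM use TMM library sizes and log2 scores a prior count of 2. Exon lengths, overlaps and filter sequences came from GENCODE M21 on GRCm38. The procedure was tested on simulated data. Depth was 48656360 to 64632882 counts, so counting error is small for all but the rarest genes. The closest pair of libraries differed by a chi-square of 19.4 per gene, and all 24 were counted separately. The genes, gene lists and naming rule were chosen with earlier results of these data known. Named genes were the 4 with the smallest p in each comparison, the genes with the highest WT level of each family, the GIRK and Kcnq genes, and partners called. Some of these genes and sequences are not reported here, and counts over the 81 genes include them. Genes with a called slope, Kcnj10 in the comparison of BCI-838 plus exercise with BCI-838, and the genes singled out beyond this rule were named after their values were seen.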

Additional observations from a re-analysis of the deposited data

Results flagged for a closer look

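For the 20 genes named in the comparisons, 100 groups of values were looked at for a library far from the rest of its group, and 4 had one; chance gives about 1 in 20. Kcng3 in BCI-838 replicate 1 was at 2.82 CPM, with the next library at 2.08 CPM. Kcnip3 in WT replicate 2 was at 107 CPM, with the next at 100.4 CPM. Kcnj6 in exercise replicate 3 was at 83.5 CPM, with the next at 57.9 CPM. Kcnmb1 in BCI-838 plus exercise replicate 5 was at 1.61 CPM, with the next at 0.557 CPM, and this library held 297 CPM of Ttr.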

How the results depend on the processing

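The 9 comparisons gave 0 potassium channel genes with edgeR, also under the other scalings, without the filter, with a replicate block and with the tissue covariate. limma voom called 5 in BCI-838 against APP/PS1 controls, 4 in BCI-838 plus exercise against exercise, 7 against BCI-838 and 12 in BCI-838 averaged over wheel access, where it called 2.64, 5.53, 5.12 and 12.0% of all genes. DESeq2 called 2, 1 and 1 in the last 3, with 2.55, 1.52 and 3.78% of the genes given an adjusted p. Leaving out 1 library gave 0 to 2 in BCI-838 plus exercise against exercise and 0 to 1 in BCI-838 averaged over wheel access. Without the 4 libraries high in Ttr the log2 fold change reversed for Kcnmb1 (-0.10) and Kcng4 (-0.55) in APP/PS1 controls against WT. It also reversed for Kcnmb1 (0.14), Kcng4 (0.28) and Kcnk12 (-0.026) in exercise against APP/PS1 controls. The control side of these fits was down to replicates 1 and 3, and the cause of the reversals was not tested. The partner genes called in BCI-838 averaged over wheel access numbered 4 with DESeq2, 6 with limma voom, 1 with the block, 0 without the filter, with the compared libraries alone and without the libraries high in Ttr, and 0 to 5 without 1 library. Rising and falling slopes on the granule score numbered 12 to 14 and 5 to 14 without 1 library, beside 1202 to 1769 and 956 to 1828 over all genes. Falling ones numbered 6 with the block (1457 of 18286 genes) and 4 without the libraries high in Ttr (4.66% of all genes). On the midbrain score rising and falling slopes numbered 2 to 5 and 4 to 9 without 1 library, beside 548 to 1004 and 417 to 932 over all genes. With the block they numbered 1 and 3 (453 and 198 of 18286 genes). Without the libraries high in Ttr they numbered 1 and 3 (2.6% and 1.15% of all genes). With DESeq2 6 rose (1123 of 22988 genes). Over all genes BCI-838 averaged over wheel access gave 55 calls with edgeR, 602 with DESeq2, 2193 with limma voom and 182 with the tissue covariate. It gave 59 with the block, 38 without the filter and 17 with the compared libraries alone. There were 0 without the libraries high in Ttr and 0 to 883 without 1 library. Deviations of same-numbered libraries correlated from -0.382 to 0.395, over 0.1 in 10 of 46 pairs. Differently numbered pairs were not compared, so these values cannot decide whether replicate numbers pair the samples. In all alternatives run the median log2 fold changes over the 81 genes moved by less than an SD between libraries of a group. That SD was of the median level of these genes in a library. Without 1 library the median kept its sign in APP/PS1 controls against WT (-0.12 to -0.06) and BCI-838 against APP/PS1 controls (0.06 to 0.11). It also did in BCI-838 averaged over wheel access (0.02 to 0.08). In the other comparisons its range crossed 0, as in BCI-838 plus exercise against APP/PS1 controls (-0.015 to 0.069). Depth limits the rarest genes, such as Kcnmb1 and Kcnj5, and 4 or 5 libraries a group limit the rest.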
